A study of Homo sapiens with 6 samples.

Results

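The comparison was between 2 short hairpin RNAs, shRNA1 and shRNA2, that were both directed against circRTN4(2,3), a circular RNA spliced from the RTN4 gene. It used 4 of the 6 libraries of the series, 2 per hairpin, and asked how far the expression profiles differ when the target is the same and the hairpin is not. Every gene whose FPKM (fragments scaled to gene length and library total) averaged 1 or more over these 4 libraries was tested, which was 18221 of 59151 listed genes; the remaining 40930 were below this level. FURIN, with a mean of 1.00045 FPKM, was just inside the limit and ARL6, with 0.99969 FPKM, just outside.

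All 6 libraries came from total RNA, depleted of ribosomal RNA, of H9-derived forebrain cells labelled as neuron progenitors at day 26 of culture. H9 is an established human embryonic stem cell line. The shRNA1 and shRNA2 groups carried the label of a circRTN4(2,3) knockdown, and the third group, with 2 libraries, carried a scrambled hairpin and is shown beside the values without entering the tests. The labels name 1 parental line, give no hairpin sequence and do not say whether replicates were separate cultures, so p-values reflect only how far these libraries vary, and that variation may be technical.

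Circular RNAs arise when the end of an exon is spliced back to the start of an exon upstream of it, which gives a closed loop without a poly(A) tail. A hairpin that is to spare the linear mRNA has to match the back-splice join, since the rest of the circle is shared with that mRNA. Hairpins are processed like microRNA precursors, and their guide strands can also repress other transcripts through short matches, which is why 2 hairpins against 1 target are commonly compared. At this stage of differentiation, cycling radial glia, which express SOX2 and NES, coexist with newborn neurons that express DCX and synaptic genes.

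The back-splice join is shown because it is the stretch that sets the target of both hairpins apart from linear RTN4; where in the circle each hairpin matches was not analysed here. The name circRTN4(2,3) was read as exons 2 and 3 of RTN4 as GENCODE v29 numbers them in a protein-coding transcript. Exon 2 lies at chr2:55028164-55028220 and exon 3 at chr2:55025086-55027485 (GRCh38, minus strand), both within the coding sequence, and together they span 2457 bases. The first sequence is exon 2 and the second is the join, with the last 15 bases of exon 3 in lower case and the first 15 bases of exon 2 in capitals.
RTN4 exon 2: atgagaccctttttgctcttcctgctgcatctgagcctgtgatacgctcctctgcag
back-splice join: tgagtaaaacttcagATGAGACCCTTTTTG

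The totals behind the FPKM values were 78488667 to 83629504 reads in the 4 hairpin libraries and 46634855 and 77187298 in scramble, so 3 reads on a gene of 1 kb stood for 0.0359 to 0.0382 FPKM with either hairpin. Replicates were close, with a median SD on the log2(FPKM + 1) scale of 0.0357 for shRNA1, 0.0453 for shRNA2 and 0.109 for scramble. Residual ribosomal RNA was uneven. MT-RNR1 stood at 118 and 27.3 FPKM with shRNA1 and at 7.81 and 6.68 FPKM with shRNA2, and RNA18S5 at 238 and 55.9 against 28.1 and 21.8 FPKM; neither passed the test, and the part of this difference in the results was not tested. The forebrain progenitor markers LHX2 (11.7 to 13.9 FPKM) and SOX2 (28.6 to 32.0) and the neuronal marker DCX (94.9 to 120) were expressed in all hairpin libraries. Summed endothelial, microglial and astrocyte markers were at most 0.0191, 0.275 and 0.327 FPKM, and the endoderm markers SOX17 and FOXA2 were listed at 0.

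The libraries with shRNA2 had lower levels of neuronal, synaptic and translation genes than those with shRNA1. They had higher levels of mitotic genes, of a few genes of pluripotent cells and of the zinc finger factors ZIC1 and ZIC4. In the test, 152 genes were higher and 755 lower with shRNA2 (limma, Benjamini-Hochberg adjusted p under 0.05), which is 4.98% of the 18221 tested genes, 0.834% higher and 4.14% lower. Of the protein-coding genes, 73 were higher and 626 lower in this test, 6.73% in all. Counts of called members in the lists below are to be read beside these shares. Most changes were small: the median log2 difference was 0.38 among the genes called higher and -0.31 among those called lower, and 41 and 73 of them differed by at least 0.5. The median over all tested genes was -0.06 and that of the 10391 protein-coding genes -0.08, while the 376 snoRNA and 483 snRNA genes had medians of 0.05 and 0.04. With median-of-ratios scaling, which brings the median of all tested genes to 0.002, 13 genes were higher (0.0713%) and 19 lower (0.104%), 0.176% in all. Protein-coding genes have a smaller spread than the small RNA genes in the table. Tested alone, 524 of them were higher (5.04%) and 3748 lower (36.1%), 41.1% in all. With that scaling added, a combination picked once the data had been seen, 1220 were higher (11.7%) and 1325 lower (12.8%), 24.5% of the 10391 in all.

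The calls rested on a narrow margin. Their adjusted p values ran only from 0.041 to the threshold, and 5746 genes had an unadjusted p under 0.05. Nearly all calls were lost when any 1 library was left out. All 907 genes kept their sign each time, but this was fixed in advance and is no support. In each of the 755 genes called lower and the 152 called higher, the libraries of the hairpins did not overlap, so the sign could not change.

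**Figure D1:**
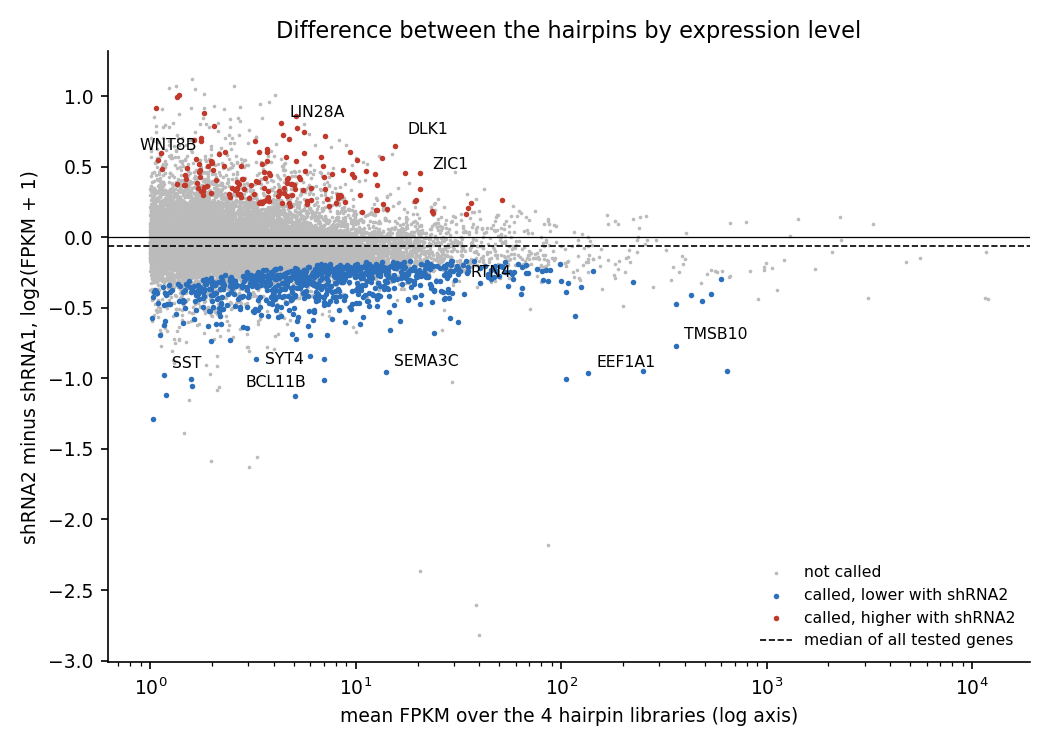
Difference between the hairpins for each of the 18221 tested genes, as shRNA2 minus shRNA1 on the log2(FPKM + 1) scale (vertical axis), against the mean FPKM of the 4 hairpin libraries (horizontal log axis). Red points are the 152 genes called higher, blue points the 755 called lower, grey points the rest; the dashed line is the median of all tested genes, -0.06.

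Genes of the presynaptic terminal were lower throughout. All 23 tested members of the list (of 29 in the table) had negative differences, and in all 23 both shRNA2 libraries lay below both shRNA1 libraries, as they did in 46.4% of all tested genes. Of these, 11 fell and 0 rose, and the median was -0.33 (-0.26 with median-of-ratios or quantile scaling), against -0.06 over all tested genes. SYT4, a synaptotagmin of secretory vesicles on chromosome 18 (43267878 to 43277650, GRCh38), stood at 9.28 and 9.31 FPKM with shRNA1, 4.58 and 4.72 FPKM with shRNA2 and 9.32 and 8.24 FPKM in scramble. The shRNA2 libraries were thus apart from the 4 others, and the log2 difference between the hairpins was -0.87 ± 0.030 (SE, limma adjusted p = 0.041). SV2A, a synaptic vesicle glycoprotein, fell from 13.0 and 13.2 FPKM to 8.78 and 8.34 FPKM (-0.56). CPLX2, a complexin that regulates vesicle fusion, fell from 6.08 and 6.01 to 3.90 and 3.75 FPKM (-0.55). The vesicle glycoprotein gene SYP (-0.43) and the membrane fusion genes SNAP25 (-0.39) and VAMP2 (-0.33) fell as well, while SYN1, which encodes synapsin, stood at 4.11 and 4.16 against 3.31 and 2.88 FPKM and did not pass (adjusted p = 0.0663).

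General neuronal genes showed the same direction with smaller differences. In the pan-neuronal and microtubule list, 27 of 28 tested genes were negative, 16 fell and 0 rose, with a median of -0.20 (-0.12 with median-of-ratios scaling). DCX, a microtubule-binding protein of migrating neurons, was at 120 and 120 FPKM with shRNA1 and 94.9 and 96.4 with shRNA2, below the scramble values of 118 and 112. Its log2 difference was -0.32 ± 0.025 (adjusted p = 0.0418). L1CAM, an axonal adhesion molecule (-0.36), GAP43, a growth cone protein (-0.30), and ENO2, the neuronal enolase (-0.29), fell too. TUBB3, a neuronal tubulin, was 34.1 and 34.4 against 32.0 and 28.0 FPKM and did not pass (adjusted p = 0.175). In bulk RNA, fewer neurons and less of these transcripts per neuron cannot be told apart.

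Receptors and channels followed. Of 24 tested postsynaptic and receptor genes, 23 were negative and 7 fell, with a median of -0.19 (-0.14 with median-of-ratios scaling); of 19 voltage-gated channel genes, 16 were negative and 2 fell, with a median of -0.21 (-0.16 with that scaling). GABRB2, a subunit of the GABA-A receptor, fell from 2.88 and 2.87 FPKM to 1.58 and 1.48 FPKM (log2 difference -0.62 ± 0.043, adjusted p = 0.041). GRIN2B, an NMDA receptor subunit, fell from 3.22 and 3.32 to 2.37 and 2.37 FPKM, which lay within the scramble values of 2.47 and 2.23. DLG4, the scaffold PSD-95, fell by 0.42 on the log2 scale. The sodium channel genes SCN3B (-0.42) and SCN3A (-0.26) were the channels that passed. Both shRNA1 libraries of SCN3B, at 7.49 and 7.35 FPKM, were above scramble (6.39 and 6.54) and both shRNA2 libraries, at 5.34 and 5.20, below it. CNR1, the cannabinoid receptor of presynaptic terminals, is on neither list and was among the genes with the largest differences, at 6.66 and 6.54 against 3.59 and 3.61 FPKM (-0.72). SLC6A17, a vesicular amino acid transporter, was at 1.59 and 1.64 against 0.627 and 0.61 FPKM (-0.69).

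Genes of the ventral forebrain and its inhibitory neurons were lower with shRNA2 in 17 of 19 tested cases, with 8 that fell, 0 that rose and a median of -0.21 (-0.14 with median-of-ratios scaling). SST, the neuropeptide somatostatin, stood at 2.15 and 1.59 FPKM with shRNA1, 0.435 and 0.475 FPKM with shRNA2 and 2.41 and 3.48 FPKM in scramble. The ratio of the mean FPKM values, shRNA2 over shRNA1, was 0.243, and the log2 difference was -0.97 ± 0.114 (adjusted p = 0.0449). EBF1, a transcription factor of striatal neurons, fell from 2.69 and 2.74 to 1.23 and 1.24 FPKM (-0.74). DLX5 and DLX6, neighbouring homeobox genes of the ganglionic eminences, fell from 11.4 and 11.1 to 7.74 and 7.52 FPKM (-0.51) and from 14.9 and 14.6 to 10.8 and 10.5 FPKM (-0.43). Their early partners DLX1 (31.2 and 30.5 against 29.6 and 28.4 FPKM) and DLX2 (17.2 and 16.6 against 16.2 and 14.5 FPKM) did not pass. The GABA synthesis genes GAD2 (-0.48) and GAD1 (-0.40) fell, and ISL1, a LIM homeobox gene of striatal precursors, fell by 0.32 on the log2 scale. DLX6-AS1, transcribed opposite to DLX6, fell by 0.19, and without a known strand setting its reads cannot be told apart from those of DLX6.

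Neuropeptide and calcium-binding protein genes had 8 lower and 1 higher among 19 tested, with a median of -0.31 (-0.24 with median-of-ratios scaling). TAC1, the substance P precursor, fell from 17.0 and 17.5 to 11.6 and 11.7 FPKM (-0.53), and the granins SCG2 (-0.48) and CHGB (-0.39), cargo proteins of dense-core vesicles, fell with it. GNRH1, the gonadotropin-releasing hormone gene, went the other way. It stood at 11.9 and 11.6 FPKM in scramble, 14.6 and 14.4 with shRNA1 and 20.7 and 19.7 with shRNA2, an ordered series without overlap, and rose by 0.45 ± 0.033 between the hairpins (adjusted p = 0.041).

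BCL11B had the largest difference of the protein-coding genes called lower. It encodes CTIP2, a zinc finger transcription factor of subcerebral projection neurons and striatal neurons, and lies on chromosome 14 (99169287 to 99271524). Its level was 10.9 and 11.5 FPKM in scramble, 9.80 and 9.68 FPKM with shRNA1 and 4.42 and 4.21 with shRNA2. The shRNA2 libraries were apart from the 4 others, with a log2 difference of -1.01 ± 0.035 (adjusted p = 0.041, and 0.0494 with median-of-ratios scaling). Its close relative BCL11A stood at 5.09 and 5.19 against 4.52 and 4.60 FPKM and did not pass (-0.14, adjusted p = 0.0796). In the cortical excitatory neuron list as a whole, 4 of 21 tested genes fell and 0 rose, with a median of -0.14 (-0.07 with median-of-ratios scaling). The others that fell were the POU factor gene POU3F2 (-0.29), CNTNAP2, a neurexin family adhesion gene (-0.27), and DKK3 (-0.25). TBR1, a transcription factor of deep-layer cortical neurons, was at 2.41 and 2.55 against 2.36 and 2.39 FPKM and did not pass.

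Newborn neuron genes were mixed. Of 11 tested members of the intermediate progenitor and newborn neuron list, 3 fell and 8 were negative. NEUROG2, a proneural factor, fell from 1.54 and 1.59 to 0.871 and 0.826 FPKM (-0.47), and BTG2, an antiproliferative gene of neurogenic divisions, fell by 0.26. RELN, the extracellular guidance protein of Cajal-Retzius cells that some interneurons also make, was 9.35 and 9.33 FPKM with shRNA1, 5.96 and 5.86 with shRNA2 and 8.01 and 8.09 in scramble. Scramble thus lay between the hairpins, which differed by -0.58 ± 0.028 (adjusted p = 0.041). TP73 and LHX1, further Cajal-Retzius markers, were at or under 0.257 FPKM in every hairpin library. LHX5, another such marker, went the other way from RELN. It was at 0.893 and 0.892 FPKM with shRNA1, 1.05 and 1.10 with shRNA2 and 0.759 and 1.10 in scramble. Its mean was below the filter, so it has no test here.

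**Figure D2:**
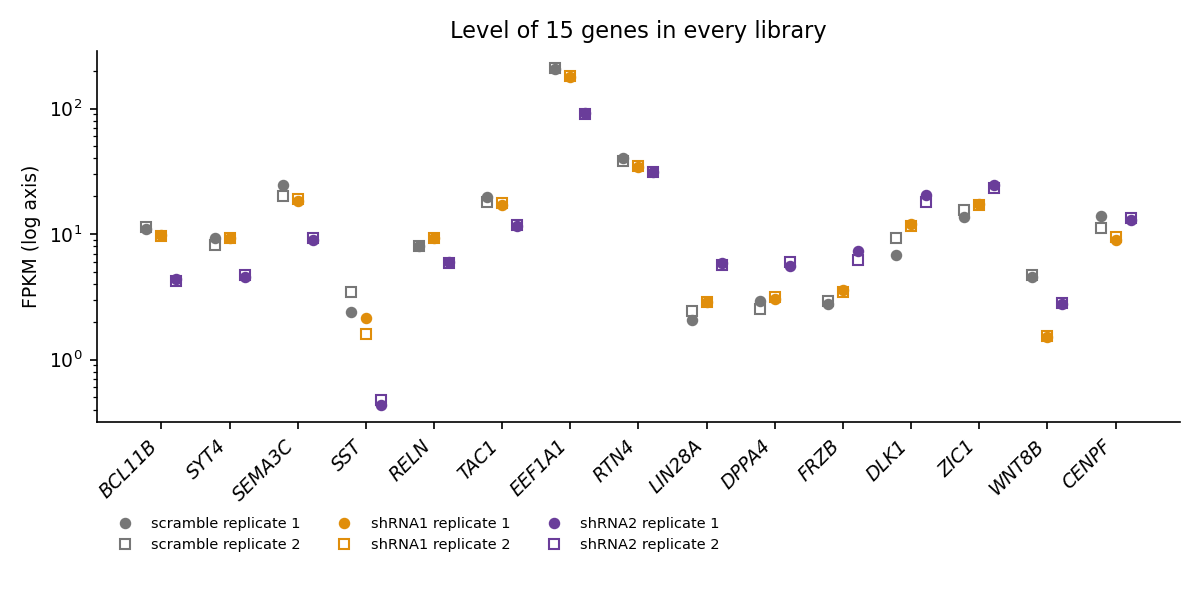
FPKM (log axis) of 15 genes in every library, with filled circles for replicate 1 and open squares for replicate 2. For every gene shown except WNT8B and CENPF, both shRNA2 libraries lie above or below the 4 others. WNT8B is lowest with shRNA1, and CENPF is at 12.9 and 13.5 FPKM with shRNA2, within its scramble range.

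Axon guidance genes were lower in 23 of 31 tested cases, with 9 that fell, 1 that rose and a median of -0.13 (-0.07 with median-of-ratios scaling). SEMA3C, a secreted semaphorin that attracts cortical axons, stood at 18.3 and 19.2 FPKM with shRNA1, 9.02 and 9.38 FPKM with shRNA2 and 24.4 and 20.1 FPKM in scramble (-0.95 ± 0.037, adjusted p = 0.041). PLXNA2, a plexin receptor for semaphorins, fell from 6.30 and 6.28 to 3.64 and 3.43 FPKM (-0.69), and PLXNA4 by 0.56. The ligand SEMA3A (-0.53), the ephrin receptor EPHA3 (-0.51) and the Slit receptor ROBO1 (-0.36) fell as well.

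Among translation genes, EEF1A1 stood out by size. It encodes the elongation factor that delivers aminoacyl-tRNA to the ribosome, and lies on chromosome 6 (73515750 to 73523797). Its level was 207 and 212 FPKM in scramble, 178 and 181 FPKM with shRNA1 and 92.5 and 91.0 with shRNA2, a ratio of 0.51 between the hairpin means (log2 difference -0.96 ± 0.027, adjusted p = 0.041). The copy EEF1A1P5, named after its values were seen, was at 853 and 844 against 435 and 444 FPKM (-0.95). The copies are nearly identical, and how reads were divided between them is not known, so their values cannot be taken as separate measurements. All 13 tested elongation factor genes were negative and 5 fell, including EEF1A2, the neuronal paralog (-0.60), EEF1G (-0.39) and EEF2 (-0.36), with a list median of -0.14 (-0.07 with median-of-ratios scaling).

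Ribosomal protein genes were negative in all 79 tested cases, with 20 that fell, 0 that rose and a median of -0.20 (-0.12 with median-of-ratios and -0.09 with quantile scaling). The called share was 25.3%. Among the 2522 most highly expressed protein-coding genes with a known position, 14.0% were called lower. RPL15 fell from 30.5 and 30.9 to 25.2 and 24.6 FPKM (-0.29 ± 0.026, adjusted p = 0.0426), RPL37A by 0.28 and RPS4X by 0.24. Many of these genes have processed pseudogenes that can take a part of their reads. Initiation factors were nearer the background, with 2 of 40 that fell and a median of -0.10 (-0.02 with median-of-ratios scaling). TMSB10, an actin-sequestering thymosin and one of the most abundant mRNAs here, was at 457 and 453 FPKM with shRNA1, 276 and 258 FPKM with shRNA2 and 436 and 542 FPKM in scramble (-0.77 ± 0.046, adjusted p = 0.041). Its relative TMSB4X, at 144 and 141 against 131 and 126 FPKM, did not pass.

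Mitotic genes were higher with shRNA2 in every tested case. All 40 members of the mitosis and spindle list had positive differences with both shRNA2 libraries above both shRNA1 libraries, as in 16.8% of all tested genes; 12 rose and 0 fell. The median was 0.20, and 0.28 with median-of-ratios or quantile scaling. CENPF, a kinetochore protein, stood at 9.05 and 9.47 FPKM with shRNA1, 12.9 and 13.5 FPKM with shRNA2 and 13.9 and 11.1 FPKM in scramble (0.47 ± 0.039, adjusted p = 0.0426). HMMR, a spindle-associated hyaluronan receptor, rose from 1.79 and 1.62 to 2.86 and 2.83 FPKM (0.51). CCNB2, a mitotic cyclin, rose from 5.96 and 6.27 to 7.83 and 8.22 FPKM (0.34). ECT2, an activator of cytokinesis (0.37), the kinesin CENPE (0.34), NUSAP1, which bundles spindle microtubules (0.30), and the proliferation antigen MKI67 (0.20) rose as well.

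DNA replication genes had the same direction with smaller differences. Of 37 tested, 34 were positive, FEN1, the flap endonuclease, rose (5.24 and 5.19 to 6.83 and 6.98 FPKM, log2 difference 0.35) and 0 fell, with a median of 0.10 (0.16 with median-of-ratios scaling). PCNA, the replication clamp, was 18.8 and 20.8 against 20.6 and 19.8 FPKM, overlapping and without a call. Replication-dependent histone genes, whose mRNAs lack a poly(A) tail, were positive in 33 of 40 tested cases, with 2 that rose and 0 that fell (median 0.09). One of them, HIST1H4I, moved from 22.1 and 22.4 to 25.2 and 25.2 FPKM.

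Because the mitotic genes moved together, their promoters are described. RefSeq (GRCh38.p14) gave a promoter for 34 of the 40, and the 250 bases upstream of the start were searched on both strands for CCAAT, the box bound by NF-Y. It was present in 27 of 34 (79.4%), in 19 of 31 DNA replication genes with a promoter (61.3%) and in 33.0% of all 27305 promoters of this length. TTTGAA, the letters of the cell cycle homology element, was found in 19 of 34 mitotic promoters (55.9%), in 1 of 31 DNA replication promoters (3.23%) and in 13.6% of all. A match describes the letters only, and whether it bears on the difference between the hairpins was not tested. Coverage was under 80% for the presynaptic, pan-neuronal and called genes, so the same check is void there. Among the mitotic genes described above, ECT2 has 2 matches, NUSAP1 3, MKI67 2 and CENPE 0. The windows of the 3 others that rose, CENPF, HMMR and CCNB2, are shown with CCAAT and its complement ATTGG in capitals. They lie at chr1:214602945-214603194 (plus strand) for CENPF, with 3 matches, chr5:163460382-163460631 (plus strand) for HMMR, with 5 matches of which a pair overlaps, and chr15:59104896-59105145 (plus strand) for CCNB2, with 4.
CENPF: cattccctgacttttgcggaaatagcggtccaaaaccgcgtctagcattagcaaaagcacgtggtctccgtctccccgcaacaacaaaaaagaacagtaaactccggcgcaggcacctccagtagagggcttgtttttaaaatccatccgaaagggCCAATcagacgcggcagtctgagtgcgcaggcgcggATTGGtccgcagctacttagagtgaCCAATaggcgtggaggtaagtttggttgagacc
HMMR: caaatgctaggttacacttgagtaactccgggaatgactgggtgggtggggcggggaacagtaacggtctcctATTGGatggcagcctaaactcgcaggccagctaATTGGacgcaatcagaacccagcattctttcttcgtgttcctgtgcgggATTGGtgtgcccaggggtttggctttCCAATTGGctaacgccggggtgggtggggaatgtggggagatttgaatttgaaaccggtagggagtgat
CCNB2: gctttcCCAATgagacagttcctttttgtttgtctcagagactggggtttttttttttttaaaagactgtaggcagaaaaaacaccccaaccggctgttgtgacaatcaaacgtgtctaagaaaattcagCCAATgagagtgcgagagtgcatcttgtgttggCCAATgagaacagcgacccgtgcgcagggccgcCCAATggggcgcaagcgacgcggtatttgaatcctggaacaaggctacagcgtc

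Progenitor markers had 4 higher and 1 lower of 23 tested, with a median of 0.04 (0.12 with median-of-ratios scaling). NES, the intermediate filament of neural progenitors, was at 46.9 and 46.5 FPKM with shRNA1, 56.3 and 56.1 FPKM with shRNA2 and 48.6 and 51.4 FPKM in scramble (0.26 ± 0.023, adjusted p = 0.0426). PTN, a growth factor of radial glia (0.45), PROM1, an apical membrane protein (0.35), and FABP7, a radial glial fatty acid binding protein (0.26), also rose. SLC1A3, a glutamate transporter of radial glia and astrocytes, fell from 5.54 and 5.45 to 4.41 and 4.26 FPKM (-0.28). SOX2 was at 28.6 and 29.1 against 32.0 and 31.8 FPKM (0.14, adjusted p = 0.057), VIM at 48.0 and 47.7 against 43.2 and 42.8 FPKM (-0.15, adjusted p = 0.0521), and PAX6 at 2.41 and 2.49 against 2.33 and 2.13 FPKM, and none of the 3 passed. Notch pathway genes had 0 calls among 18 tested with limma (4 at an unadjusted p under 0.05) and a median of 0.02.

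**Figure D3:**
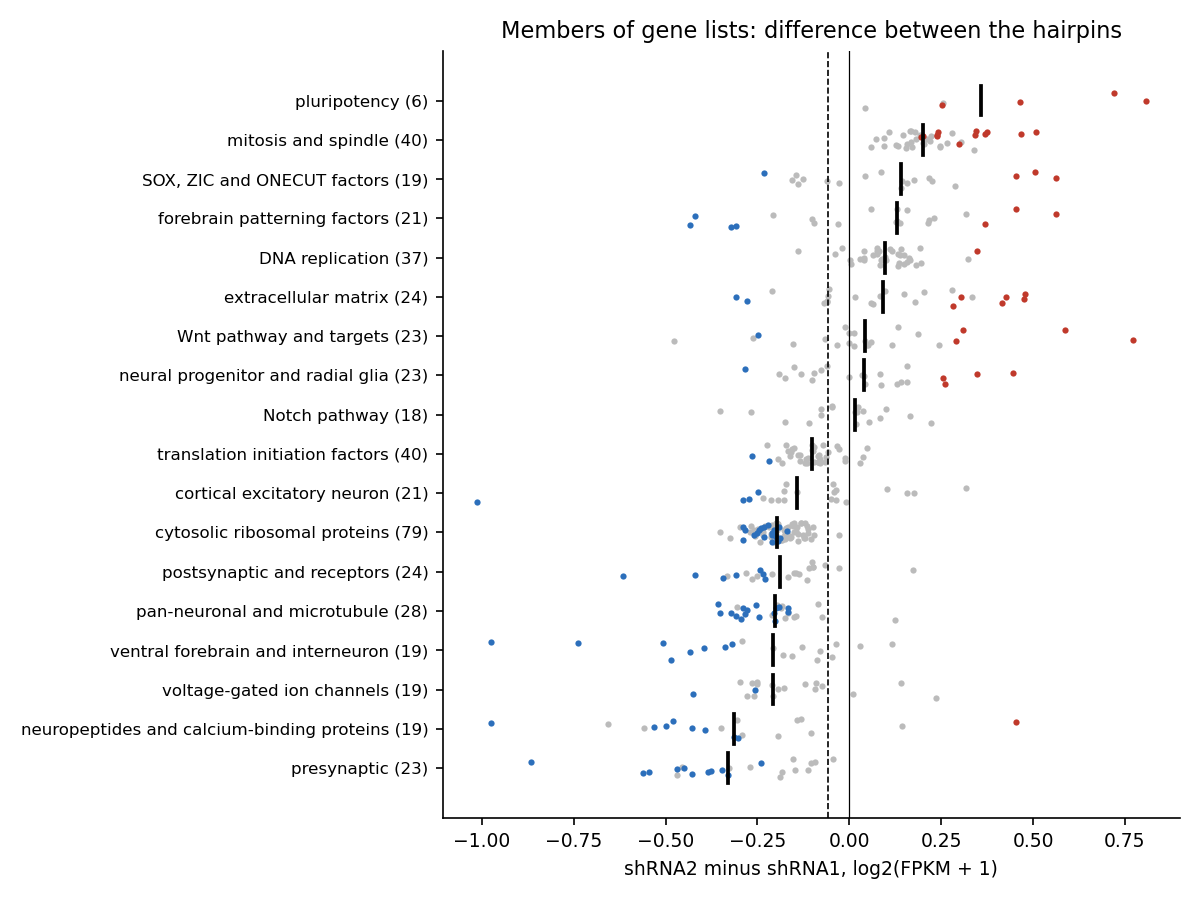
Difference between the hairpins (shRNA2 minus shRNA1, log2(FPKM + 1)) for each tested member of 18 gene lists, with the number tested in brackets. Red members were called higher, blue ones lower, black bars mark list medians (0.20 for mitosis, -0.33 for presynaptic genes), and the dashed line is the median of all tested genes.

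Genes known from pluripotent cells included the protein-coding gene called higher with the largest difference, LIN28A. This RNA-binding protein blocks the maturation of let-7 microRNAs and is expressed in stem cells and early neural progenitors (chromosome 1, 26410778 to 26429722). It stood at 2.86 and 2.86 FPKM with shRNA1, 5.90 and 5.63 FPKM with shRNA2 and 2.08 and 2.45 FPKM in scramble, with a ratio of 2.01 between the hairpin means (0.81 ± 0.037, adjusted p = 0.041). DPPA4, a chromatin protein of pluripotent cells, rose from 3.05 and 3.16 to 5.60 and 5.95 FPKM (0.72), SALL4, a zinc finger factor, from 2.92 and 2.80 to 4.37 and 4.27 FPKM (0.46), and TRIM71, a let-7 target, by 0.25. Of 21 genes in the list, 6 were above the filter, 4 rose and all 6 were positive (median 0.36). The 15 others, among them POU5F1 (0.0498 FPKM or less) and NANOG (0.0687 FPKM or less), were below it in the hairpin libraries. LIN28B was at 7.23 and 7.56 against 7.57 and 7.75 FPKM and did not pass.

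Patterning factors changed in both directions, with 3 higher and 4 lower of 21 tested. ZIC1, a zinc finger factor of the early neural plate, stood at 13.6 and 15.7 FPKM in scramble, 17.3 and 17.1 FPKM with shRNA1 and 24.6 and 23.2 with shRNA2 (0.45 ± 0.036, adjusted p = 0.0425). Its relative ZIC4 rose from 2.17 and 2.06 to 3.41 and 3.42 FPKM (0.50), and OTX2, a head patterning homeobox gene, rose by 0.37 on the log2 scale. NR2F1, a nuclear receptor of caudal cortex, fell from 2.63 and 2.57 to 1.72 and 1.61 FPKM (-0.43), and MEIS2, a homeobox gene of striatal precursors, fell by 0.31. ZNF503, a zinc finger gene of striatal development, fell from 8.26 and 7.65 to 4.18 and 3.81 FPKM (-0.84). FGF19, an FGF ligand, rose from 3.37 and 3.33 to 6.34 and 5.79 FPKM (0.70), and DLK1, an imprinted Notch-family ligand, from 12.1 and 11.7 to 20.4 and 18.0 FPKM (0.64). The imprinted gene PEG10, of retrotransposon origin, fell from 138 and 140 to 93.9 and 94.2 FPKM (-0.56).

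In the Wnt list, 4 of 23 tested genes were higher and 1 lower (median 0.04). FRZB, a secreted Wnt antagonist, stood at 3.61 and 3.45 FPKM with shRNA1 and 7.32 and 6.21 with shRNA2, above 2.78 and 2.92 in scramble (0.77 ± 0.082, adjusted p = 0.0446). WNT8B, a ligand of the cortical hem, was at 1.53 and 1.53 FPKM with shRNA1 and 2.77 and 2.83 with shRNA2, both under the scramble values of 4.55 and 4.68 (0.59 between the hairpins). WLS, the carrier that brings Wnt ligands to the cell surface, showed the same order, at 4.12 and 4.02, 5.27 and 5.11, and 8.37 and 9.31 FPKM (0.29 between the hairpins). The Wnt effector TCF7L2 rose by 0.31. GJA1, a gap junction gene of radial glia, likewise stood at 3.86 and 3.86 FPKM with shRNA1 and 5.40 and 5.59 with shRNA2 (0.42), under 11.1 and 10.4 in scramble.

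Extracellular matrix genes had 6 higher and 2 lower of 24 tested (median 0.09). The basement membrane collagens COL4A5 and COL4A6, neighbours on the X chromosome, rose from 8.30 and 8.19 to 11.4 and 11.4 FPKM (0.43) and from 6.99 and 7.20 to 10.2 and 10.3 FPKM (0.48), and COL5A2 (0.48) and the laminin gene LAMC1 (0.28) rose. The brain proteoglycans VCAN (-0.31) and NCAN (-0.28) fell. Mesenchymal markers, with COL1A1, COL3A1, LUM, DCN and PDGFRB summed, were at 1.08 and 0.916 FPKM with shRNA1, 0.492 and 0.312 with shRNA2 and 4.82 and 5.43 in scramble, with 0 of the 5 above the filter. COL3A1 stood at 0.538 and 0.476 FPKM with shRNA1 and 0.0790 and 0.0459 with shRNA2, and TTR, the choroid plexus transthyretin gene, at 0.497 and 0.785 against 0.0577 and 0.0632 FPKM. Both were below the filter and have no test here. The other choroid plexus markers did not follow TTR. KCNJ13 (1.08 and 1.20 against 0.980 and 1.13 FPKM) and AQP1 overlapped between the hairpins. CLIC6 (0.110 and 0.101 against 0.119 and 0.176 FPKM) and FOLR1 (0.00729 and 0.0153 against 0.0215 and 0.0451 FPKM) were higher with shRNA2. In the choroid plexus and roof plate list, 1 of 6 tested genes was higher (OTX2) and 0 lower, with a median of 0.007.

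The metabolic and stress lists given here had 0% to 10.5% of their tested members called. The share was 4.98% over all tested genes and 6.73% over protein-coding genes. Nuclear respiratory chain genes had 3 lower and 0 higher of 47 tested (median -0.14, or -0.06 with median-of-ratios scaling), with COX6A1 at -0.29, and cholesterol synthesis genes 2 lower of 25 (median -0.14, or -0.06 with that scaling), with the desaturase SCD at -0.28. Each of the 12 mitochondrially encoded mRNAs was negative, and CYTB, for cytochrome b, was the 1 that passed (-0.30); their median was -0.23, or 0.01 with quantile scaling. Unfolded protein response genes had 1 of 22 lower (XBP1, -0.22) and p53 targets 2 of 19 (BTG2 and CDKN1A, the latter at -0.35). Among 13 tested genes of double-stranded RNA sensing and interferon response, IFIT5 fell (-0.23) and the median was -0.01. Cytosolic heat shock genes had 0 calls among 15 with limma (4 at an unadjusted p under 0.05), with a median of -0.06 that was 0.02 under median-of-ratios and quantile scaling.

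RTN4, the host gene of the target, encodes the endoplasmic reticulum protein Nogo and spans chr2:54972187-55112621. Gene-level FPKM mixes its linear and circular RNAs. It stood at 34.2 and 34.7 FPKM with shRNA1 and 31.2 and 31.3 with shRNA2, without overlap. The difference of -0.14 ± 0.024 did not pass (adjusted p = 0.0586, and 0.279 with median-of-ratios scaling). It passed with a mean FPKM of at least 5 (adjusted p = 0.0293) and with protein-coding genes only (0.00686), but not when median-of-ratios scaling was added to the latter (0.462). In the list of RTN4 receptors, ligands and reticulons, 2 of 20 tested fell, the reticulon RTN1 (-0.21) and REEP1, a shaper of the endoplasmic reticulum (-0.42). PABPC1, the cytoplasmic poly(A)-binding protein, was at 39.2 and 40.6 against 38.9 and 37.2 FPKM (-0.07 ± 0.036, adjusted p = 0.294). Its sign was positive with median-of-ratios and quantile scaling. Among 36 tested poly(A) binding, RNA export and circular RNA factors, RBFOX2, a neuronal splicing regulator, fell (-0.29) and IGF2BP1, an mRNA-binding protein of progenitors, rose (0.18). Their median was -0.04 and turned to 0.03 with median-of-ratios scaling. Among 21 genes of RNA interference and small RNA handling, LIN28A rose and TSN, a translin subunit gene, fell (-0.22).

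Of 601 tested miRNA genes, 24 passed, 8 higher and 16 lower, which is 3.99% of them, against 4.98% of all tested genes. These libraries were not made for small RNAs, so the values count fragments over the hairpin genes and not mature miRNAs. A host gene was looked for only for the 17 of the 24 with a RefSeq hairpin entry. Of these 17, 13 lie within a tested gene on the same strand. The median residual SD of the 601 tested miRNA genes was 0.247 against 0.0358 for protein-coding genes. Of the called genes, 3 whose mature strands belong to well-known families in neural development are shown, chosen after their values were seen. All 3 were called higher. Other called genes, such as MIR30E (0.49) and MIR301A (-0.33), are not shown. The strands are as RefSeq gives them (GRCh38.p14), with the seed, bases 2 to 8, in capitals. The miR-181 pair shares 1 seed.
hsa-let-7c-5p: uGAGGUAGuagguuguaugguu
hsa-miR-181a-5p: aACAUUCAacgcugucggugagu
hsa-miR-181b-5p: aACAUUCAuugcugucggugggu

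MIRLET7C stood at 0.723 and 0.455 FPKM with shRNA1, 2.14 and 2.23 FPKM with shRNA2 and 0.766 and 0.617 FPKM in scramble (1.01 ± 0.10, adjusted p = 0.0439). The gene is 84 bases long, so these values stood for 5 and 3 reads with shRNA1, 15 and 15 with shRNA2 and 3 and 4 in scramble. Its host MIR99AHG was at 1.76 and 1.62 against 2.31 and 2.31 FPKM and did not pass (0.30, adjusted p = 0.0537). MIR181A2 was at 3.31 and 3.71 against 5.44 and 5.91 FPKM (0.57), which was 30 and 32 against 50 and 52 reads, and its host MIR181A2HG, at 4.22 and 4.40 against 5.06 and 5.30 FPKM, did not pass (0.22, adjusted p = 0.0631). MIR181B2, at 4.09 and 4.44 against 6.72 and 7.17 FPKM (0.59), had 30 and 31 against 50 and 51 reads, and no host was looked for. MIR3606, which lies within COL3A1, is 63 bases long and fell from 1.93 and 1.82 FPKM, or 10 and 9 reads, to 0.380 and 0 FPKM, or 2 and 0 reads; its fitted log2 difference of -1.29 depends on the pseudocount. Among long noncoding RNAs, NEAT1, the paraspeckle scaffold (0.36), SOX2-OT, which overlaps SOX2 (0.37), and RMST, a neurogenic noncoding RNA (0.18), rose, and NORAD, a sponge of Pumilio proteins, fell (-0.18).

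The scramble libraries, which took no part in the test, place each hairpin. For the 755 genes called lower with shRNA2, the scramble mean lay between the hairpin means in 60.4%, above both in 36.2% and below both in 3.44%, and it was nearer to shRNA1 in 80.9%, against 64.3% of all tested genes. For the 152 genes called higher it lay between them in 54.6%, below both in 28.9% and above both in 16.4%, and was nearer to shRNA1 in 57.9%. Among all tested genes, it lay between in 62.8% of those with a log2 difference of at most -0.25. The share was 53.6% where the difference was at least 0.25, so the shares between are not particular to the called genes. Gene groups differed in which hairpin stood apart. The median of the mitotic genes, relative to the scramble mean on the log2(FPKM + 1) scale, was -0.24 and -0.21 with shRNA1 and -0.02 and -0.03 with shRNA2, with the scramble libraries at 0.04 and -0.04, so the shRNA1 libraries lay away from scramble. Presynaptic genes were at 0.14 and 0.14 with shRNA1 and -0.13 and -0.16 with shRNA2, on opposite sides of scramble, whose own libraries were at -0.07 and 0.07. Ribosomal protein genes were at -0.15 and -0.15 with shRNA1 and -0.32 and -0.37 with shRNA2, on the same side. For these genes the scramble libraries themselves were at -0.09 and 0.09, not far from shRNA1 in the case of scramble replicate 1. Over all tested genes the medians were -0.0006 and 0.0007 with shRNA1 and -0.05 and -0.07 with shRNA2. The values were not scaled, and this offset was not taken out of the list medians. Both hairpins share the scramble libraries, so these are values side by side and not separate results.

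**Figure D4:**
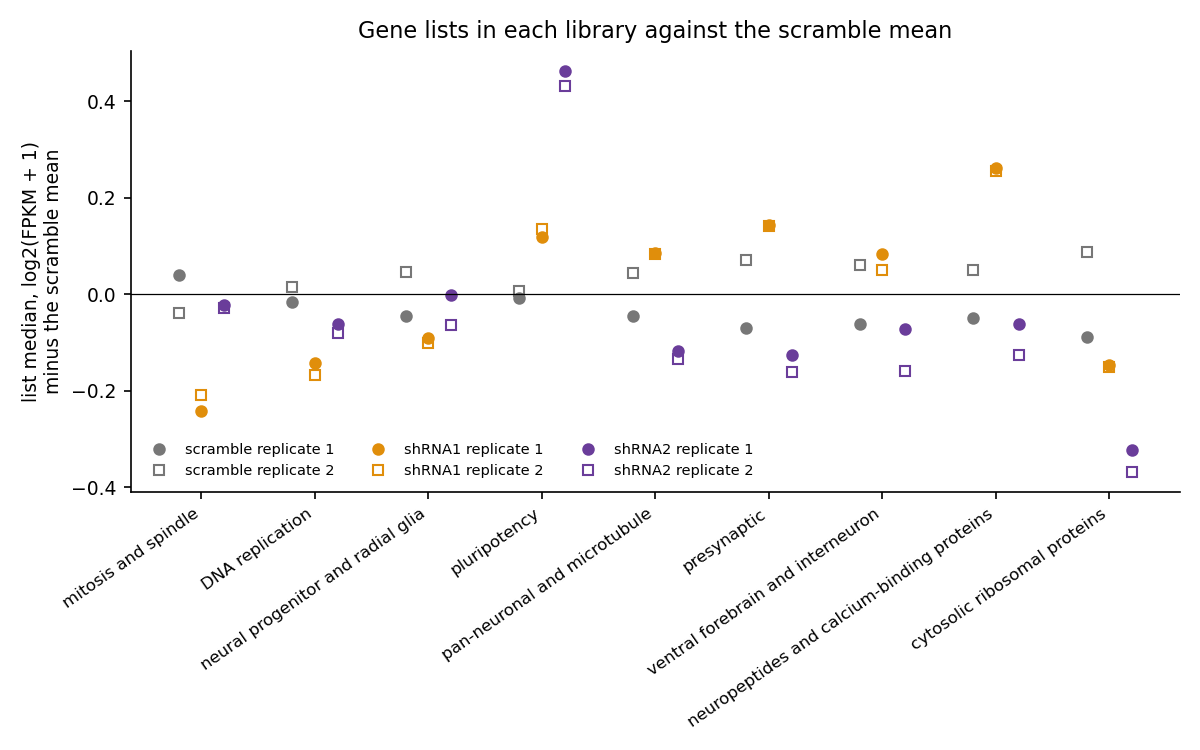
Median of 9 gene lists in every library, relative to the mean of the scramble libraries (log2(FPKM + 1), vertical axis), with filled circles for replicate 1 and open squares for replicate 2. Mitotic genes are low with shRNA1 only, presynaptic genes lie on opposite sides of scramble, and the pluripotency list is highest with shRNA2, at 0.46 and 0.43. Values are not scaled, and the median of all tested genes was -0.05 and -0.07 with shRNA2.

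By chromosome, median differences of protein-coding genes ran from -0.11 on chromosome 9 to -0.06 on chromosome 18. By expression, among protein-coding genes with a known position, 1.86% of the 2522 least expressed were called lower and 14.0% of the 2522 most highly expressed.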

How the data were processed

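Gene expression was measured by RNA sequencing of ribosomal RNA-depleted total RNA in 6 libraries, of which the 4 hairpin libraries were compared. The authors deposited 1 table of FPKM values, per the file headers, with 1 value per gene symbol and library. The submitters' processing notes name Trimmomatic 0.39, HISAT2 2.1.0, SAMtools 1.9, featureCounts 2.0.1 and the build GRCh38 (hg38). The annotation, strand setting and treatment of multi-mapping reads are each not given in the sources used here, so reads of overlapping genes and near-identical copies cannot be assigned with certainty. In the table, 29 symbols read as dates and 4 rows repeated a symbol.

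Each value was taken as log2(FPKM + 1), with no scaling of the libraries, and genes averaging 1 FPKM or more in the 4 hairpin libraries were kept; this scale understates the change of low genes. limma 3.58.1 (R 4.3.3) with a mean-variance trend was fitted to these 4 libraries, with 2 residual degrees of freedom, and p-values were adjusted by Benjamini-Hochberg over all 18221 genes. The fit was tested on simulated data. Read totals were recovered from the steps of low FPKM values with GENCODE v29 exon lengths. Gene classes and positions come from GENCODE v29 and, where it has none, RefSeq. Summaries and figures used pandas 2.3.3, numpy 2.4.6 and matplotlib 3.10.9 under Python 3.11.15.

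The members and the gene lists were chosen with earlier results of these data known, so no list was tested as a set. List counts are to be read beside the 4.98% called over all tested genes and the 6.73% called among protein-coding genes. By rule, RTN4 and PABPC1 were named always, then the 15 called protein-coding genes per direction with the largest non-overlapping difference, 5 of other classes per direction, and up to 6 called members per list by p (2 where none was called); other genes are named from the cell type markers or as comparators, after their values were seen. Some genes that the rule would name are not reported here. Alternatives covered the pseudocount, the filter, scaling, the source of the spread, gene classes, the replicate block and each library left out.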

Additional observations from a re-analysis of the deposited data

How the results depend on the processing

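Pseudocounts of 0.1 and 0.5 and robust moderation kept the number of called genes within 1.5 times of 907. With a mean FPKM of at least 5 the test gave 1611 genes (160 higher, 1451 lower of 4511), and with protein-coding genes only 4272 (524 higher, 3748 lower of 10391). Median-of-ratios scaling gave 32 (13 higher, 19 lower), all among the 907, and protein-coding genes with that scaling, chosen after the data were seen, 2545 (1220 higher, 1325 lower). The count was 0, in each direction, without a filter on low values (9143 genes at an unadjusted p under 0.05), with quantile normalization (4574), with the spread from all 6 libraries (2926), without the trend (5667) and with the replicate block (5264), each with limma. Replicate differences of the hairpins correlated at 0.0148 over genes, so no shared effect of the replicate number was seen. The labels do not say whether libraries with the same replicate number were prepared together. Leaving out 1 library gave 0 to 1 genes in all, 0 to 0 higher and 0 to 1 lower, with 3381 to 5201 at an unadjusted p under 0.05; the lone library of the arm was assumed to vary like the other arm. The cause of these changes was not tested. PABPC1, at -0.07, was 0.0168 with median-of-ratios scaling, 0.0057 with quantile normalization and 0.0392 with protein-coding genes and that scaling. No other gene that the naming rule gives was reversed. RTN4, at -0.14, passed only with a mean FPKM of at least 5 (limma adjusted p = 0.0293) and with protein-coding genes only (0.00686). Genes named as markers or comparators were not followed through the alternatives. Depth limits low values: 3 reads on a gene of 1 kb stood for 0.0359 FPKM or more, a limit that covers counting error only.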
